A study of Mus musculus with 6 samples.

Results

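The 8 genes described here are CC chemokine receptors that guide T cells to inflamed or barrier tissue: Ccr1, Ccr2, Ccr3, Ccr4, Ccr6, Ccr8, Ccr9 and Ccr10. They were taken by symbol from the 18493 genes of the deposited table, and each symbol matched 1 row. RNA was measured in regulatory T (Treg) cells, sorted by CD4, CD25 and YFP (CD4+CD25+YFP+) out of the spleen and lymph node of untreated female C57BL/6 mice aged 7 weeks. The study concerns the role in Treg cells of the non-oxidative pentose phosphate pathway, in which transketolase (Tkt) is an enzyme. The WT group (n = 3) carried the Foxp3cre/+ genotype, in which Cre and YFP are made from the Foxp3 locus, and the cKO group (n = 3) was Foxp3cre/+ TKTfl/fl, so that Tkt is deleted in cells that express Foxp3. The Cre allele is thus shared by both groups. Foxp3 is X-linked, and the design text calls both groups chimeric, so the host also held Treg cells without YFP that the sort left out. The labels do not say whether a library pools animals, and p-values here rest on the spread of 6 libraries, which may be technical.

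Chemokine receptors are G protein-coupled receptors on the cell surface that sense gradients of chemokines and direct migration and integrin-dependent arrest. Treg cells that have been activated by antigen leave the recirculating pool and gain receptors such as CCR2, CCR4, CCR6 and CCR8, which lead them to inflamed tissue, skin, lung and gut. CCR9 and CCR10 are known for homing to the small intestine and to skin and mucosal epithelia, and CCR1 and CCR3 are best known from myeloid cells and eosinophils. In mm10 the genes of 6 of the receptors lie on chromosome 9, where Ccr9 (start 123767211), Ccr1 (123962126), Ccr3 (124017825) and Ccr2 (124101918) lie close together and Ccr4 (chr9:114490316-114505476) and Ccr8 (chr9:120092133-120094906) lie apart. Ccr6 lies at chr17:8236041-8258519 and Ccr10 at chr11:101172998-101175443.

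The libraries held 17180577 to 18215168 estimated reads. Tkt, the targeted gene, stood at 126, 97.1 and 121 CPM (read counts scaled to a common library size) in WT and at 52.5, 44.8 and 31.9 CPM in cKO, so every cKO library was below every WT library (fitted log2 change -1.41 ± 0.19 SE, adjusted p = 0.0516 in edgeR's test, not called). The Treg markers Foxp3 (WT 598 ± 123 CPM, cKO 620.4 ± 58.9 CPM, SD, n = 3) and Il2ra (755 ± 109.8 and 757 ± 85.7 CPM) were high in both groups. WT2 and cKO1 stood apart from the other libraries on the first principal component of log2 CPM, which held 38.5% of the variance (23.8 and 26.4, against -19.9 to 3.74 for the others). Results that rest on them are given with and without both. WT1 and WT3 were far more alike than any other pair of the same group. The chi-square per gene between their counts was 4.09, against 15.5 to 48.9 for the other pairs. These values do not show whether WT1 and WT3 come from separate animals.

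Per gene length, Ccr8 was the highest of the receptors and Ccr10 the lowest. The authors' FPKM values (reads scaled by gene length and library size) are used for this order, since only levels per length can be compared between genes. Ccr8 stood at 31.0, 43.3 and 26.3 FPKM in WT and at 20.2, 17.7 and 15.0 FPKM in cKO. Ccr4 came next at 17.5 to 23.1 FPKM in WT, followed by Ccr6 at 11.7 to 15.8, Ccr2 at 7.43 to 9.21 and Ccr9 at 4.78 to 5.87 FPKM. In WT the ranges of neighbours in this order did not overlap, except for Ccr1 (0.26 to 0.42 FPKM) and Ccr3 (0.15 to 0.26 FPKM), which met at their ends. In cKO the ranges of Ccr4 (10.4 to 12.8 FPKM) and Ccr6 (9.62 to 12.7 FPKM) overlapped. They did not overlap when CPM per kilobase of annotated exons was used instead (9.44 to 11.3 against 6.89 to 8.9998). Ccr9 (4.85 to 5.95 FPKM) lay above Ccr2 (3.47 to 3.80 FPKM) in cKO, the reverse of their order in WT.

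**Figure D1:**
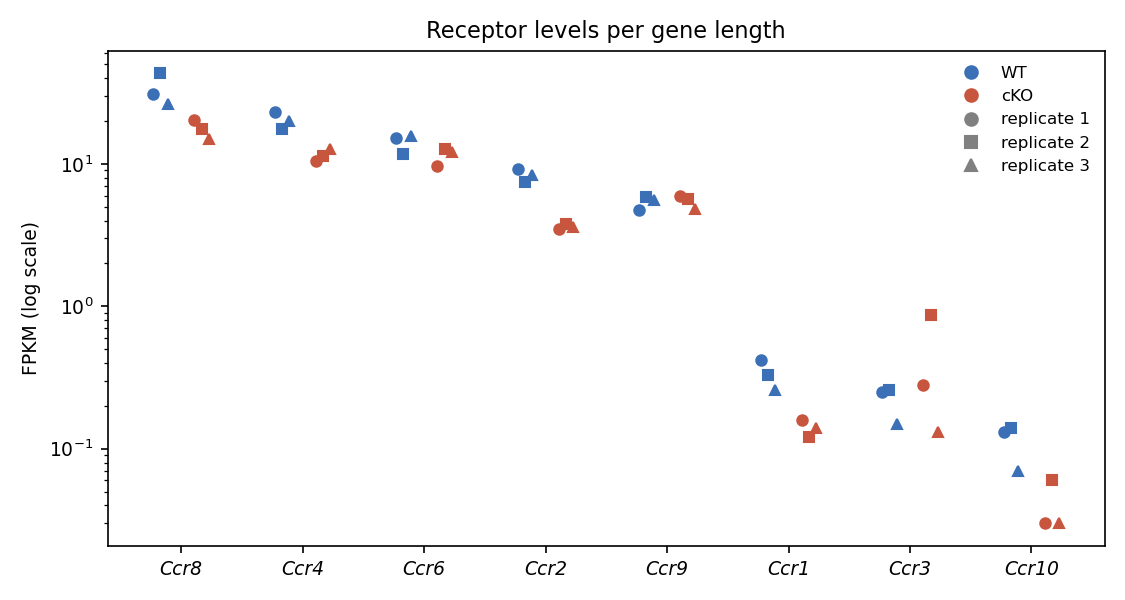
Level of each receptor per gene length in FPKM (vertical log axis), with 1 point for each of the 3 WT (blue) and 3 cKO (red) libraries and the marker shape giving the replicate number. Ccr8 is highest in both groups, and Ccr2 lies above Ccr9 in WT (7.43 to 9.21 against 4.78 to 5.87 FPKM) and below it in cKO.

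The summed FPKM of the 8 receptors was 83.9, 86.6 and 76.6 in the WT libraries and 50.2, 52.3 and 48.7 in the cKO libraries. All cKO libraries thus lay below all WT libraries in this sum. The share of Ccr9 in the sum was 5.70% to 7.23% in WT and 9.96% to 11.9% in cKO, and that of Ccr2 was 8.58% to 11.0% in WT and 6.92% to 7.39% in cKO. These shares do not depend on how libraries are scaled. Ccr8 took 34.3% to 50.05% of the sum in WT and 30.8% to 40.3% in cKO, with overlapping ranges.

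Ccr2, the receptor of CCL2 and related monocyte chemoattractants, was the only receptor of the 8 called lower in cKO cells in edgeR's test with all libraries. Its level was 33.4, 28.2 and 31.6 CPM in the WT libraries and 13.1, 13.8 and 13.2 CPM in the cKO libraries. The cKO libraries lay close together, and the highest of them was below the lowest WT library. The group means were 31.1 ± 2.68 and 13.4 ± 0.392 CPM (SD, n = 3), a 2.32-fold fall (95% interval 1.99 to 2.70; log2 fold change -1.21 ± 0.09 SE, adjusted p = 0.0269 in edgeR's quasi-likelihood test). Its p-value ranked 1 among the 12887 genes tested. Of these genes, 0.202% were called lower. The call was lost when any library other than WT2 was left out. The adjusted p was 0.0196 without WT2, but 0.146 without WT1, 0.108 without WT3, 0.0792 without cKO1, 0.0867 without cKO2 and 0.0931 without cKO3, with log2 fold changes of -1.28 to -1.16. Without WT2 and cKO1 together it was called (fitted log2 change -1.27, adjusted p = 0.0253). The gene (Entrez 12772) spans chr9:124101918-124109140 in mm10.

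Monocytes also express Ccr2, so their markers were read beside it. Of 10 tested monocyte and macrophage markers 1 was fitted below 0, against 48.6% of all genes tested. None was called by edgeR, against 0.210% of all genes tested. The summed level of all 12 was 511 to 539 CPM in WT and 531 to 575 CPM in cKO. Most of that sum came from Ms4a6c (292 ± 16.98 and 305 ± 44.6 CPM, SD, n = 3) and Ctss (183 ± 14.3 and 176 ± 0.860 CPM). The sum therefore hardly shows differences in the scarcer markers. Csf1r, the receptor that defines the mononuclear phagocyte lineage, stood at 1.66, 4.25 and 1.46 CPM in WT and at 9.07, 21.97 and 2.40 CPM in cKO, so that cKO1 and cKO2 were above all WT libraries (adjusted p = 0.527 in edgeR's test, not called). None of these markers was at 0 in all libraries. In bulk RNA, fewer Ccr2-positive cells and less Ccr2 RNA per cell cannot be told apart, and this holds for the other receptors as well.

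**Figure D2:**
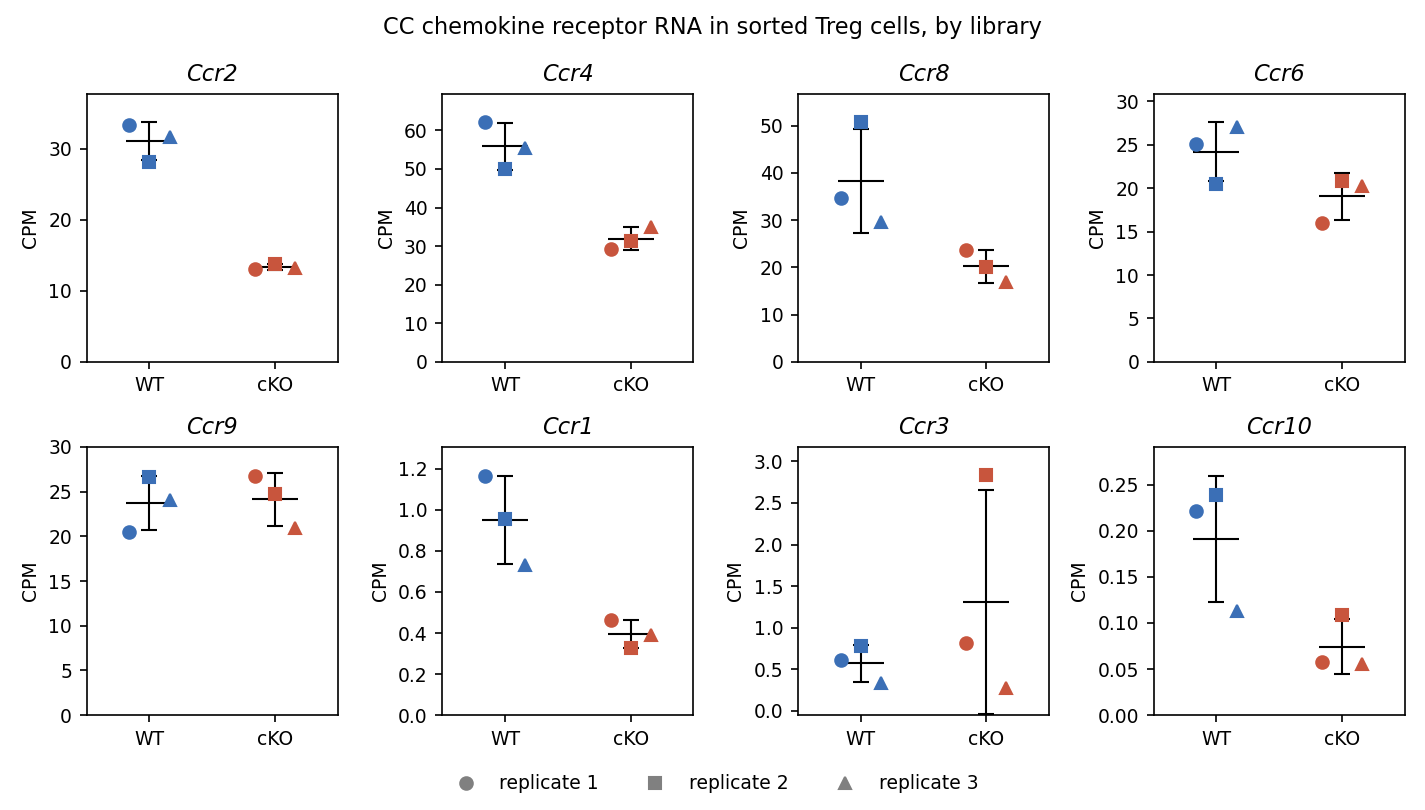
Level of each receptor in CPM (vertical axis, own scale in each panel) in the 3 WT (blue) and 3 cKO (red) libraries. Black lines are the group mean and SD (n = 3). Ccr2, Ccr4, Ccr8 and Ccr1 show every cKO library below every WT library, Ccr6 and Ccr9 overlap, and Ccr3 is high in cKO2 alone (2.83 CPM). For Ccr10, WT3 and cKO2 both had 2 reads, so scaling alone puts WT3 above cKO2.

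Ccr4 and Ccr8, the receptors with the highest levels per length, were lower in every cKO library than in any WT library but were not called. CCR4 binds CCL17 and CCL22 and is known for the homing of Treg cells to skin and lung. Its RNA stood at 62.1, 50.1 and 55.4 CPM in WT and at 29.2, 31.3 and 35.1 CPM in cKO. The group means were 55.9 ± 6.02 and 31.9 ± 2.99 CPM (SD, n = 3), with a fitted log2 change of -0.81 ± 0.11 (SE) and an adjusted p of 0.0520 in edgeR's test, just above the threshold of 0.05. The fitted ratio was 1.75-fold lower in cKO with a 95% interval of 1.47 to 2.09. Without WT2 the call was made (fitted log2 change -0.88, adjusted p = 0.0436), as it was without WT2 and cKO1 together (-0.82, adjusted p = 0.0403) and with DESeq2 (adjusted p = 1.5e-06). Leaving out any other library gave adjusted p-values of 0.175 to 0.226, and limma on log2 FPKM gave 0.106.

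CCR8 binds CCL1 and CCL8 and marks activated Treg cells of tissues. Its RNA stood at 34.7, 50.7 and 29.6 CPM in WT and at 23.7, 20.1 and 16.8 CPM in cKO. WT2 was the highest library by a wide margin, while the lowest WT and the highest cKO library were close. The group means were 38.3 ± 11.0 and 20.2 ± 3.45 CPM (SD, n = 3), with a fitted log2 change of -0.92 ± 0.22 (SE; 95% interval -1.43 to -0.41) and an adjusted p of 0.237 in edgeR's test. Without WT2 the log2 fold change was -0.67 (adjusted p = 0.208), and without WT2 and cKO1 together it was -0.80 (adjusted p = 0.0904). DESeq2 called the gene (adjusted p = 0.0054).

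Sequence upstream of the start is shown for Ccr4 and Ccr8, which were lower in every cKO library, and for Ccr9, which was not. They were picked with these results known, and 3 windows cannot tie a motif to the difference between the groups. The windows hold 200 bases, from 250 to 51 bases before an annotated RefSeq start in GRCm38.p6 (the build mm10), and lie outside the exons of GENCODE. The Ccr4 window is chr9:114496595-114496794 on the minus strand, before a start that lies within the span of the gene. The bases that follow this start were not found in a GENCODE transcript of Ccr4, unlike those of Ccr8 and Ccr9. The window of Ccr2, with 183 of its 200 bases within GENCODE exons, is not shown. The Ccr8 window is chr9:120091883-120092082 and the Ccr9 window chr9:123766961-123767160, both on the plus strand. Capitals mark matches, on either strand, to short motifs of factors known in T cells.
Ccr4: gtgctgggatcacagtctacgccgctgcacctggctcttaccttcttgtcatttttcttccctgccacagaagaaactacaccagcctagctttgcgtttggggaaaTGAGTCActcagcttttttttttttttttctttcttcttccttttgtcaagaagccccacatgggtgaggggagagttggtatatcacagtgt
Ccr8: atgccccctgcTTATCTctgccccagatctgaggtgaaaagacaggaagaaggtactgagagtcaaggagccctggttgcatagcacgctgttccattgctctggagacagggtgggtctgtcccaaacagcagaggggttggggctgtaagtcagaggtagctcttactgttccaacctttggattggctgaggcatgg
Ccr9: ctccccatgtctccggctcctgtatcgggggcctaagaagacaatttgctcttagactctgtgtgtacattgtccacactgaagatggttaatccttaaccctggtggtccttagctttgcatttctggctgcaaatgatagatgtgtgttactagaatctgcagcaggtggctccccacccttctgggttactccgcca
The Ccr4 match begins 143 bases before the start and is to the AP-1 motif TGANTCA, which BATF and JUN proteins bind. It was present in 5.57% of the 32851 windows of this length in the RefSeq table, and also in that of Ccr3. The Ccr8 match begins 239 bases before the start and is to the GATA motif AGATAA, which was present in 8.42% of all windows. The GATA motif was also present in the window of Ccr2 and in a window of Ccr6, whose libraries overlapped between groups. Another window of Ccr6 held matches to STAT and TCF motifs. The Ccr9 window held no match to the 6 motifs searched. The other 4 were RUNX (TGTGGT, in 11.6% of all windows), forkhead (GTAAACA, 2.58%), STAT (TTCNNNGAA, 5.76%) and TCF (CTTTGA, 11.8%), and neither the Ccr4 nor the Ccr8 window held a match to them. A match describes the letters of these windows.

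Ccr6 and Ccr9 did not pass the test, and their libraries overlapped between groups. CCR6, the receptor of CCL20, is carried by Treg cells and T helper 17 cells of the gut. Its RNA stood at 25.1, 20.4 and 27.0 CPM in WT and at 16.0, 20.9 and 20.3 CPM in cKO. WT2 lay within the range of the cKO libraries. The log2 fold change was -0.35 ± 0.14 (SE; 95% interval -0.68 to -0.01), with an unadjusted p of 0.0471 and an adjusted p of 0.637 in edgeR's test.

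CCR9, the receptor of CCL25, leads T cells to the small intestine. Its RNA stood at 20.5, 26.6 and 24.0 CPM in WT and at 26.8, 24.8 and 20.9 CPM in cKO, and both groups covered nearly the same range. The log2 fold change was 0.03 ± 0.13 (SE; adjusted p = 0.992 in edgeR's test), and its 95% interval ran from -0.28 to 0.34. Ccr9 overlaps Gm17200 and Gm17020 on its own strand, and Slc6a20a, Lztfl1, Gm10052 and AC165425.1 on the opposite strand. The counting is not stated to use strand. Reads of these genes therefore cannot be told apart from those of Ccr9 where they overlap.

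Ccr1, Ccr3 and Ccr10 were near the limit of detection. CCR1 binds CCL3 and CCL5. Ccr1 had 21, 16 and 13 estimated reads in the WT libraries and 8, 6 and 7 in the cKO libraries. The sums were 50 reads in WT (exact Poisson 95% interval 37.1 to 65.9) and 21 in cKO (13.0 to 32.1), intervals that cover counting error only. Ccr1 passed the filter on low counts only through the WT libraries, where it was higher, so that it had to differ between the groups. Its log2 fold change was -1.26 ± 0.35 (SE), with an adjusted p of 0.354 in edgeR's test.

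CCR3 is the receptor of the eotaxins CCL11 and CCL24. Ccr3 had 11, 13 and 6 reads in WT and 14, 52 and 5 reads in cKO, so that cKO2 stood far above the others while cKO3 was the lowest of all. The log2 fold change was 1.19 ± 0.79 (SE; adjusted p = 0.833 in edgeR's test), and -0.08 without cKO2. In cKO2 the macrophage marker Csf1r (21.97 CPM) was also highest. Of the 10 eosinophil, basophil and mast cell markers 7 were matched in the table, and their summed level was 9.69 to 10.1 CPM in WT and 7.97 to 11.3 CPM in cKO. The highest sum, 11.3 CPM, was that of cKO2, and most of it came from the mast cell receptor Kit. Kit was highest in cKO2 (8.18 CPM, against 3.17 to 7.26 CPM elsewhere). Other genes of this list did not share that pattern. Cpa3, which was scarce, was lowest in cKO2 (0.0545 CPM, against 0.222 to 0.359 CPM elsewhere). Ms4a2 and Il5ra were highest in cKO3. The eosinophil genes Siglecf, Epx and Prg2 were at or near 0 in every library (at most 0.169, 0.338 and 0.507 CPM). The part of RNA from these cell types in the level of Ccr3 was not tested.

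Ccr10, the receptor of CCL27 and CCL28, had 4, 4 and 2 reads in WT and 1, 2 and 1 in cKO and was not tested in the main comparison. Its sums of 10 reads (exact Poisson 95% interval 4.80 to 18.4) and 4 reads (1.09 to 10.2) had overlapping counting intervals. It also overlaps Cntnap1 on the opposite strand.

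Of the 8 receptors 7 were tested, 1 was called lower and none higher by edgeR. Over all genes tested 0.210% were called in either direction and 0.00776% were called higher. An unadjusted p under 0.05 was reached by 5 of the receptors and by 7.69% of all genes. The cKO libraries were all below the WT libraries for 4 of the tested receptors, against 8.12% of all genes, and for none was the order the reverse, against 6.10%. Fitted log2 changes had a median of -0.81 over the tested receptors and of 0.004 over all genes tested. Because Ccr1 entered through its WT libraries, these counts describe the receptors that passed the filter. Without Ccr1, 4 of 6 had an unadjusted p under 0.05, 3 of 6 had all cKO libraries below all WT libraries, and the median was -0.58. DESeq2 called 3 of them, Ccr2, Ccr4 and Ccr8, all lower. It called more genes in general, 177 of 12887, of which 153 were lower. With WT2 and cKO1 left out edgeR called 2 of the receptors, Ccr2 and Ccr4, and 71 of all 12917 genes tested. In that fit the log2 changes of the other receptors were -1.39 for Ccr1, 1.70 for Ccr3, -0.80 for Ccr8, -0.34 for Ccr6 and 0.04 for Ccr9.

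**Figure D3:**
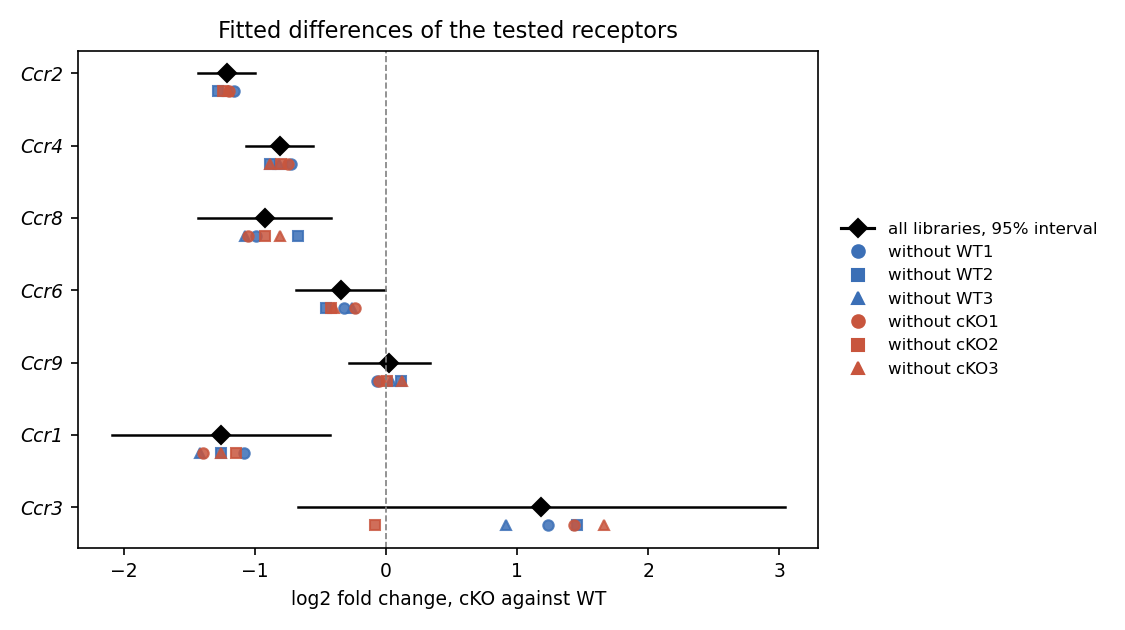
Fitted log2 fold change (cKO against WT, horizontal axis) of the 7 tested receptors with the 95% interval from all 6 libraries (black), and below each the value with 1 library left out (blue for a WT library, red for a cKO library). Ccr2, Ccr4, Ccr8, Ccr6 and Ccr1 lie below 0 throughout, Ccr9 sits around 0, and Ccr3 drops from 1.19 to -0.08 without cKO2.

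The ligands of these receptors were scarce in the sorted cells. Of 18 ligand genes 6 were tested, and none was called by edgeR in either direction, against 0.210% of all genes tested. The summed level of all 18 was 13.2 to 17.2 CPM in WT and 10.6 to 13.1 CPM in cKO. Ccl5, a ligand of CCR1 and CCR3, stood at 6.21, 4.96 and 3.77 CPM in WT and at 3.43, 3.49 and 1.95 CPM in cKO (fitted log2 change -0.75 ± 0.30 SE, adjusted p = 0.597). Ccl3 also lay lower in every cKO library, at 1.35 to 1.44 CPM in WT and 0.501 to 1.14 CPM in cKO. Ccl20, the ligand of CCR6, overlapped between the groups at 1.67 to 2.87 and 0.988 to 1.95 CPM. Ccl3 and Ccl20 were picked after their values were seen. The median of the 6 tested ligands was -0.35.

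Among 7 atypical and receptor-like genes, 1 passed the filter. This was Ccrl2, a receptor-like protein that presents chemerin and is close in sequence to the CC receptors. It stood at 18.2, 17.8 and 16.2 CPM in WT and at 13.5, 7.14 and 7.46 CPM in cKO. The groups did not overlap, with cKO1 the nearest to WT, and the gene was not called (fitted log2 change -0.89 ± 0.24 SE, adjusted p = 0.328 in edgeR's test).

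Of 28 tested genes that carry the signal of the receptors, such as the G protein subunit Gnai2 and the Rac activator Dock2, none was called by edgeR in either direction, and their median log2 fold change was 0.04. The cKO libraries were all above the WT libraries for 6 of them, against 6.10% of all genes tested, and all below for 3, against 8.12%. Over all genes tested 0.210% were called. Gnai2 stood at 866, 580 and 840.4 CPM in WT and at 750.1, 777 and 787 CPM in cKO (fitted log2 change 0.02 ± 0.15 SE). Dock2 stood at 652 to 692 CPM in WT and 664 to 695 CPM in cKO. Rasgrp2, which activates Rap1 for integrin-dependent arrest, had the lowest p of the list, and its level was 302 to 316 CPM in WT and 358 to 432 CPM in cKO (fitted log2 change 0.36 ± 0.09 SE, adjusted p = 0.259). Gnai2 and Dock2 were chosen for their role after their values were seen.

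There were 13 tested genes that damp receptor signalling (G protein-coupled receptor kinases, arrestins and RGS proteins). None was called by edgeR in either direction, against 0.210% of all genes tested, and the median log2 fold change was 0.05. Rgs1, which shortens G protein signals of chemokine receptors, had the lowest p. It stood at 488, 654 and 519 CPM in WT and at 436, 446 and 381 CPM in cKO (fitted log2 change -0.39 ± 0.13 SE, adjusted p = 0.466).

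Transcription factors of T cell differentiation and homing included several that lay lower in every cKO library. None of the 24 tested was called by edgeR, against 0.210% of all genes tested. The cKO libraries were all below the WT libraries for 8 of them, against 8.12% of all genes tested, and all above for 3, against 6.10%. The median log2 fold change was -0.16. Ahr, the aryl hydrocarbon receptor known for T cells of barrier tissue, had the lowest p, at 50.3, 50.05 and 52.6 CPM in WT and at 36.5, 35.3 and 36.2 CPM in cKO (fitted log2 change -0.50 ± 0.07 SE, adjusted p = 0.0520). The factors named next were chosen for their roles after their values were seen. Rora, which encodes a nuclear receptor found in tissue T cells, showed a fitted log2 change of -0.96 ± 0.18 (SE; adjusted p = 0.125).

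Batf and Irf4, which act together in the differentiation of effector Treg cells of tissues, had log2 fold changes of -0.42 ± 0.13 and -0.33 ± 0.07 (SE), with adjusted p-values of 0.461 and 0.186. Gata3, the factor of type 2 T cells, in which Ccr4 and Ccr8 are characteristic receptors, overlapped between the groups at 194 to 224 CPM in WT and 162 to 221 CPM in cKO (fitted log2 change -0.19 ± 0.13 SE). Satb1, a chromatin organiser, and Lef1, a factor of the Wnt pathway, lay above all WT libraries in every cKO library, with log2 fold changes of 0.40 ± 0.08 and 0.32 ± 0.08 (SE; adjusted p = 0.169 and 0.304).

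**Figure D4:**
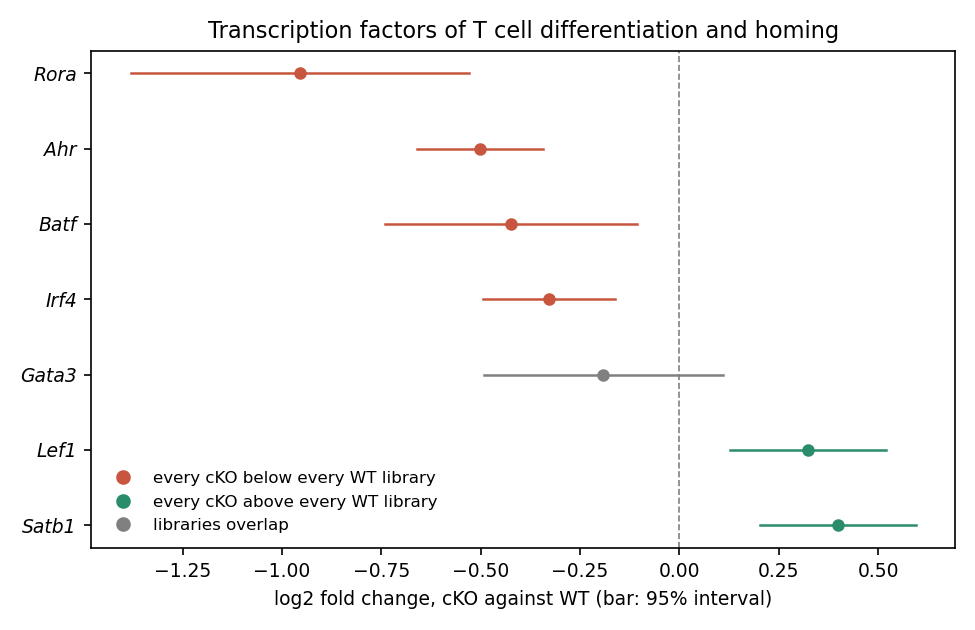
Fitted log2 fold change (cKO against WT, horizontal axis) of the transcription factor genes named in the text, with bars for the 95% interval of the fit over 3 WT and 3 cKO libraries. Red marks Ahr, Rora, Batf and Irf4, whose cKO libraries all lie below the WT libraries, with Rora lowest (-0.96), grey marks Gata3, whose libraries overlap, and green marks Satb1 (0.40) and Lef1 (0.32), with the opposite order. None was called.

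The genes whose log2 CPM followed that of Ccr2 most closely over the 6 libraries were Adap1, Cybb and Cxcr4. Pearson's r was 0.994, 0.992 and 0.992, and Spearman's rho was 0.943, 1 and 0.886, among 8355 genes searched. These are descriptions: the 6 points share the 2 groups, and a gene with a clear difference between the groups scores high by that alone. Adap1, which encodes a GTPase-activating protein of ARF6 with lipid-binding domains, stood at 18.4, 17.3 and 18.8 CPM in WT and at 12.2, 13.0 and 12.6 CPM in cKO (fitted log2 change -0.53 ± 0.09 SE, adjusted p = 0.0978 in edgeR's test). It was not called. Cybb, which encodes an NADPH oxidase subunit that makes superoxide, averaged 38.9 ± 3.30 CPM in WT against 22.7 ± 1.61 CPM in cKO (SD, n = 3), and edgeR called it lower (-0.78 ± 0.10 SE on the log2 scale, adjusted p = 0.0449). Cxcr4, the receptor of CXCL12, averaged 331 ± 8.25 CPM in WT against 187 ± 8.23 CPM in cKO and was called lower as well (-0.82 ± 0.07 SE, adjusted p = 0.0269).

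Other markers gave the makeup of the sort. Of 12 Treg cell markers none was called by edgeR in either direction, against 0.210% of all genes tested. Nrp1 had the lowest p of these markers (fitted log2 change -0.31 ± 0.08 SE, adjusted p = 0.321 in edgeR's test). Their summed level was 6545 to 6903 CPM in WT and 6007 to 6380 CPM in cKO, so the sum was lower in every cKO library. This gap depends on Ctla4, which was highest in WT2 (1727 CPM, against 492 to 977 CPM elsewhere) and overlapped between the groups. Without Ctla4 the sums overlapped too. Taken singly, 3 of the 12 markers had all cKO libraries below all WT libraries, against 8.12% of all genes tested. Dendritic cells, some of which carry Ccr9, had summed marker levels of 48.3 to 51.6 CPM in WT and 51.5 to 58.9 CPM in cKO, most of it from Bst2 (45.1 ± 2.70 and 48.3 ± 1.97 CPM, SD, n = 3), which T cells also express. The summed B cell markers were 63.4 to 86.3 CPM in WT and 49.0 to 110.5 CPM in cKO, those of CD8 T and NK cells 40.0 to 45.2 and 37.3 to 46.6 CPM, and those of plasma cells 104 to 176 and 108 to 142 CPM. Neutrophil markers summed to 8.93 to 12.1 CPM in WT and 8.89 to 13.3 CPM in cKO, and stromal and endothelial markers to 2.99 to 19.4 and 15.8 to 20.3 CPM. Erythroid markers were at 0.277 to 5.80 CPM in WT and at 3.56 to 199 CPM in cKO, the high value being cKO1. None of the genes in these lists was called, and their part in the levels of the receptors was not tested.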

How the data were processed

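Per the submitters' processing notes, which give no role or order, DESeq2 1.16.1, featureCounts 1.5.0-p3 and HISAT2 2.0.5 are named with mm10. The authors deposited estimated counts per gene, not normalized (45.4% to 46.3% of values were not whole to within 0.01), and FPKM, as judged from the values; the step that left fractions is not stated. Entrez identifiers matched RefSeq GRCm38.p6 for 17412 of 18493 genes.

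Estimated counts were rounded. In R 4.3.3 with edgeR 4.0.16, genes passing filterByExpr (minimum count 10) were scaled by TMM and tested by the quasi-likelihood F test with group as the only term; p-values were two-sided and adjusted by Benjamini-Hochberg over 12887 genes, and a gene was called at adjusted p under 0.05. The SE was derived from the F statistic. The code was tested on simulated data. CPM follow TMM scaling.

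Alternatives were DESeq2 1.42.0, limma 3.58.1 (voom, and log2 FPKM with pseudocount 0.1), other scalings, filters and fits, the replicate number as a block, and libraries left out (WT2 and cKO1 together because an earlier analysis had them apart).

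Receptors and gene lists were chosen with earlier results of these data known, and the motifs after these results. By rule the named genes were all 8 receptors, Tkt, Foxp3 and Il2ra, of each list up to 4 called genes or else the one with the lowest p, the most abundant marker of each other cell type, and the 3 genes with a mean of at least 10 CPM most like the receptor with the lowest p; lists of other cell types on which no result turns are given as sums. Other genes named were chosen after their values were seen. Values of some listed genes are not reported here.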

Additional observations from a re-analysis of the deposited data

How the results depend on the processing

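The count of 27 genes called by edgeR was 34 with its newer quasi-likelihood fit. It was also 34 with a filter of CPM of at least 1 in 3 libraries. The count was 177 with DESeq2, 43 with no filter on low counts, 48 with robust empirical Bayes and 71 without WT2 and cKO1. It was 0 with the replicate number as a block (811 at an unadjusted p under 0.05), 0 with limma on log2 FPKM (929) and 0 to 30 with 1 library left out: 30 without WT2 and 0 without any other (681 to 909). Of the receptors, 1 was called with all libraries, 3 with DESeq2, 2 with no filter on low counts, 2 with a filter of CPM of at least 1 in 3 libraries, 2 with robust empirical Bayes, 2 with the newer quasi-likelihood fit of edgeR, 2 without WT2 and cKO1 together, 0 with limma on log2 FPKM, 0 with the replicate block and 0 to 2 with 1 library left out. The cause was not tested. Ccr2 was called in 11 of 18 alternatives, Ccr4 in 7 and Ccr8 in 1, and all 3 stayed below 0. Because the groups of these 3 do not overlap, the direction under left-out libraries is no sign of stability. With the replicate block, Ccr2 had a log2 fold change of -1.21 and an adjusted p of 0.189, and Ccr4 an adjusted p of 0.211.

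With 1 library left out the log2 fold change of Ccr3 ran from -0.0797 (without cKO2, a reversal) to 1.66, and that of Ccr9 from -0.0659 to 0.12, with reversals without WT1 (-0.0659) and without cKO1 (-0.0530). None of these was called. The labels do not say whether the numbers pair the libraries. Deviations of same-numbered libraries from their group means correlated at -0.34, 0.04 and 0.31 for numbers 1, 2 and 3. WT1 and WT2 did not correlate best with their own number. With 3 libraries a group, these correlations cannot decide whether same-numbered libraries belong together. The order of mean receptor levels was the same for all 8 when CPM per kilobase of annotated exons replaced FPKM. Ccr1, Ccr3 and Ccr10 had 1 to 52 reads a library, which limits the precision of their values.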
